A study of Rattus norvegicus with 50 samples.

Results

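MHC class II antigen presentation was followed through 8 genes in rat liver. They are the invariant chain gene Cd74, the chain genes RT1-Da, RT1-Db1, RT1-Ba and RT1-Bb, the peptide editor genes RT1-DMa and RT1-DMb, and the transactivator gene Ciita. The genes were chosen by symbol, and all 8 of 8 were among the 14217 genes with a probe set of 1 symbol. Each gene was read from its probe set with the highest mean over the 50 arrays, as log2 signal, on which a difference of 1 is a doubling.

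The livers came from female Brown Norway rats, strain Bn/Crl with the MHC haplotype RT1n, aged 9 to 11 weeks, with 1 array per rat. Vehicle rats were sham dosed and sampled at 3 h, 24 h, 48 h, 8 d and 15 d. Galactosamine rats received 750 mg/kg once into the peritoneum and were sampled 3 h, 24 h, 48 h and 8 d later. Nevirapine, an antiretroviral drug, was dosed orally, starting at 150 and stepping down to 100 and 75 mg/kg, and nevirapine rats were sampled after dose 1 (3 h), dose 2 (24 h), dose 3 (48 h) and dose 16 (15 d). Combination rats received nevirapine for 7 days, then galactosamine, and went on with nevirapine until 3 h, 24 h, 48 h or 8 d after galactosamine. The comparisons address the 8 d over which fibrosis arose with both drugs but not with either alone. Groups held 3 rats, except 2 for galactosamine at 48 h.

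The design sets limits on these groups. Rats were taken 2 h after their last oral dose, but 5 h after it in the 3 h groups and 3 h after it for nevirapine at 3 h. No group had nevirapine alone for 7, 8 or 9 days, as the combination rats had at 3 h, 24 h and 48 h. In these groups the earlier nevirapine and the added galactosamine therefore cannot be told apart. Nevirapine rats at 24 h and 48 h had had 2 and 3 doses, and combination rats 9 and 10. The control for the combination at 8 d is vehicle at 15 d, since those rats were dosed for 15 days in all. The difference between the 3′ and 5′ probe sets of GAPDH, which grows as RNA degrades, was 0.0089 to 0.86 over the arrays. Over the 17 groups, the means of the hepatocyte markers ran from 14.14 to 14.18 for albumin (Alb), at the top of the signal range, from 12.42 to 13.14 for Apoa1, from 12.87 to 13.60 for Fgb, from 13.31 to 13.73 for Serpina1 and from 13.41 to 13.65 for Ttr.

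Class II molecules present peptides from the endosomal pathway to CD4+ T cells. An α and a β chain assemble with the invariant chain, which blocks the groove; proteases then cut the invariant chain down to the fragment CLIP, and the DM editor exchanges CLIP for peptide. CIITA binds no DNA itself: it is recruited to factors on the X and Y boxes of class II promoters, and interferon-γ induces it in many cell types. In liver, Kupffer cells, other macrophages, dendritic cells and B cells carry class II, and hepatocytes are normally low. RT1-D corresponds to the human DR and RT1-B to the human DQ molecules.

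The promoters of the chain and editor genes are shown because the members moved together. RefSeq promoter sequences on build GRCr8 matched 6 of the 8 members; RT1-DMb and Ciita had no entry. The lines give bases -130 to -11 before the start of the gene, 5′ to 3′ along the gene. Capitals mark the end of the X box written ACNGATG, a Y box written TGATTGG, and the Y box core ATTGG, which reads as CCAAT where it lies on the other strand. The core is part of TGATTGG.

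RT1-Da (chr20:4515285-4515404, plus strand): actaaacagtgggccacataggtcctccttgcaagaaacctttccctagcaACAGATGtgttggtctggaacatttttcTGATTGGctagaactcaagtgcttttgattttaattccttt
RT1-Db1 (chr20:4560173-4560292, minus strand): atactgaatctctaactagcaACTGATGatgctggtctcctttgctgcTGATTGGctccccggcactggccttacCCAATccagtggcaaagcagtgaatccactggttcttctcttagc
RT1-Bb (chr20:4604129-4604248, minus strand): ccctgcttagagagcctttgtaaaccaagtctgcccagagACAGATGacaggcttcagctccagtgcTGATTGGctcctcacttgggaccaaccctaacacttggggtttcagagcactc
RT1-Ba (chr20:4576927-4577046, plus strand): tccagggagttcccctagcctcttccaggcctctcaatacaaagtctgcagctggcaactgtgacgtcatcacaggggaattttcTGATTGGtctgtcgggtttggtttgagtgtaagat
RT1-DMa (chr20:4712346-4712465, minus strand): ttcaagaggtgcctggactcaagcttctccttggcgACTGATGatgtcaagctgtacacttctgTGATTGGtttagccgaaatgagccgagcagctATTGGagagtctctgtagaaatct

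RT1-Da, RT1-Db1, RT1-Bb and RT1-DMa carried the X box letters and then TGATTGG in the same direction, with 23, 22, 22 and 23 bases between the X box letters and the core ATTGG. RT1-Ba carried TGATTGG without a match to the X box letters, and Cd74 held ATTGG once, on the other strand at base -189. Among all 33469 promoters of 300 bases, on both strands, 10.2% held the X box letters, 7.06% held TGATTGG and 37.5% held ATTGG. The ordered pair within 30 bases was found in 106 of them (0.317%), of which 10 belong to RT1 genes. All 10 had 20 to 23 bases between, a distance found in 13 of the 106. The 10 include the class I genes RT1-CE3, RT1-CE5, RT1-CE10 and RT1-M3-1, so the pair is not particular to class II. The letters and the distance were chosen after the sequences had been seen. A match is a description of the sequence, and a missing one says only that these letters are not in the window. On chromosome 20 the members lie in the order RT1-Da, RT1-Db1, RT1-Ba, RT1-Bb, RT1-DMb and RT1-DMa, and Cd74 lies on chromosome 18.

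Class II expression in the vehicle livers was above the array background. In the 15 vehicle rats Cd74 ran from 7.94 to 9.12 with a median of 8.74, RT1-Da from 7.10 to 8.63 with a median of 8.03, and RT1-Ba from 8.93 to 9.64 with a median of 9.32. The highest mean of 27 bacterial control probe sets, used here as the background level, was 4.37. RT1-DMa ran from 5.11 to 6.16 and RT1-DMb from 6.03 to 7.02. Between vehicle at 15 d and at 8 d none of the 8 members was called, where 3.33% of all genes were, and their differences lay between 0.11 and 0.38. A gene was called where the adjusted p of the limma fit was under 0.05.

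**Figure D1:**
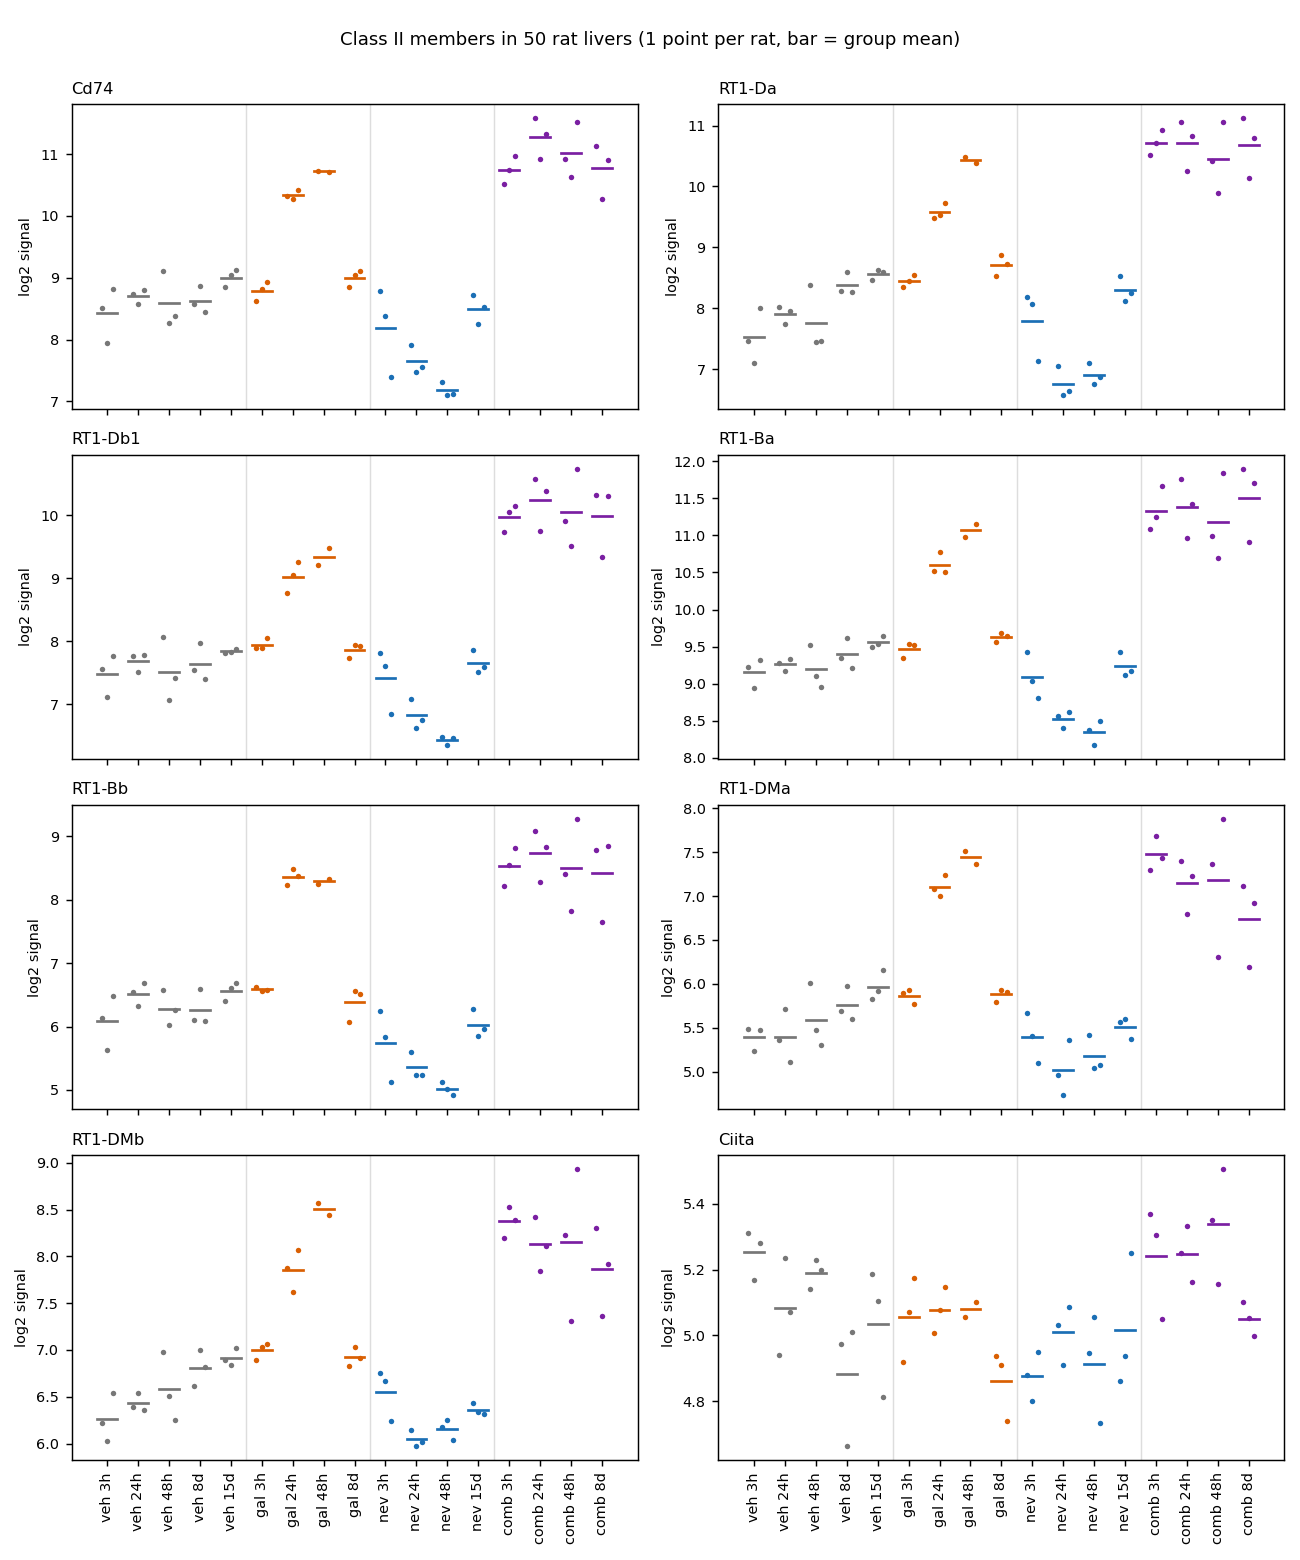
Log2 signal of the 8 members (vertical axis of each panel, each with its own scale) in each of 17 groups (horizontal axis), 1 point per rat, with a bar at the group mean; grey is vehicle, orange galactosamine (gal), blue nevirapine (nev) and purple the combination (comb). In the first 7 panels all rats of galactosamine at 24 h and 48 h and of the combination lie above all other rats, and Ciita spans only 4.67 to 5.50. The share of all genes parted in this way was not counted.

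The order of the groups was nearly the same for 7 of the 8 members. For Cd74, both RT1-D chains, both RT1-B chains and both RT1-DM chains, the 6 highest group means were galactosamine at 24 h and 48 h and the combination at 3 h, 24 h, 48 h and 8 d. In each of these 7 genes the lowest of the 17 rats in those groups lay above the highest of the other 33 rats. For Cd74 the 17 rats ran from 10.28 to 11.58 and the 33 from 7.11 to 9.12. For RT1-DMa, where the gap was narrowest, they ran from 6.19 to 7.88 and from 4.73 to 6.16. Nevirapine at 24 h and 48 h held the bottom ranks, 16 and 17, in all 7 genes. Vehicle at 15 d, galactosamine at 3 h and galactosamine at 8 d followed the top 6, at ranks 7 to 10 in every gene, and their values overlapped with each other for Cd74. This order is a description, and the 6 groups were singled out after their values had been seen. The share of all genes that parts these 17 and 33 rats was not counted. The separation is therefore not shown to be particular to class II.

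Galactosamine raised 7 of the 8 members at 24 h, by 1.33 to 1.85 on the log2 scale. Cd74 was at 10.33, 10.28 and 10.42 in the 3 galactosamine rats and at 8.74, 8.58 and 8.80 in the vehicle rats. All treated rats were above all vehicle rats, and the change was 1.64 ± 0.25 (SE of the fit; limma with Benjamini-Hochberg adjustment, adjusted p = 4.86e-07). RT1-Bb, the β chain of RT1-B, was at 8.23, 8.48 and 8.38 against 6.54, 6.32 and 6.68, a change of 1.85 ± 0.28 (adjusted p = 3.61e-07). RT1-DMa, the α chain of the editor, was at 7.08, 7.00 and 7.24 against 5.37, 5.71 and 5.11, a change of 1.71 ± 0.24 (adjusted p = 9.02e-08). The other 4 called genes were RT1-Da (1.67), RT1-DMb (1.42), RT1-Ba (1.34) and RT1-Db1 (1.33). None of the 7 had overlapping groups, where 29.9% of all genes lay apart on the higher side. At this time 30.2% of all genes were called higher and 58.8% were called in either direction, against which the 7 of 8 are read. The changes of these 7 genes lay above the median of all genes, -0.07. Ranked by change from the top among 14217 genes, they held ranks 518 (RT1-Bb) to 1222 (RT1-Db1). In whole liver RNA, more cells of a type and more RNA per cell cannot be told apart, which holds for every comparison here.

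At 48 h the same 7 genes were higher, by 1.82 to 2.68. RT1-Da, the α chain of RT1-D, was at 10.49 and 10.39 in the 2 galactosamine rats and at 8.38, 7.44 and 7.46 in vehicle. Both treated rats lay above every vehicle rat, and the change of 2.68 ± 0.29 was a 6.40-fold higher signal (limma, adjusted p = 2.2e-09). Cd74 changed by 2.13 ± 0.28, RT1-Bb by 2.01 ± 0.31 and RT1-DMb by 1.93 ± 0.25. Of all genes, 24.9% were called higher. Vehicle rat 10 stood above the other vehicle rats of this time in all 7 genes, and the GAPDH difference was 0.613 on average in vehicle and 0.138 in galactosamine. With the GAPDH difference as a covariate, 7 members were called.

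The rise began unevenly, and at 8 d it was small and not called. At 3 h only RT1-Da and RT1-DMb were called, where 14.9% of all genes were called higher. RT1-Da was at 8.35, 8.45 and 8.54 against 7.46, 7.10 and 8.01, a change of 0.93 ± 0.26 (limma, adjusted p = 0.00485), and RT1-DMb changed by 0.74 ± 0.23 (adjusted p = 0.0107). Neither was called without vehicle rat 2, which was the lowest of its group in 7 of 7 genes. Cd74 had a change of 0.36 ± 0.25 and overlapping groups. From 3 h to 24 h all 7 genes rose, by 0.86 to 1.78 (32.8% of all genes rose). From 24 h to 48 h RT1-Da rose by 0.86 ± 0.29 (adjusted p = 0.0135) and RT1-DMb by 0.65 ± 0.25 (adjusted p = 0.0332), where 22.7% of all genes rose; 1 or 0 members were called when any single galactosamine rat other than 24 was left out. From 48 h to 8 d the 7 genes fell, by 1.44 (RT1-Ba) to 1.91 (RT1-Bb), where 23% of all genes fell. At 8 d Cd74 was at 8.85, 9.04 and 9.11 against 8.57, 8.86 and 8.45 in vehicle. None of the 8 members was called at 8 d by limma, where 0.0352% of all genes were, and none had an unadjusted p under 0.05. The changes of the 7 genes were still 0.12 to 0.37, at ranks 268 (Cd74) to 3189 (RT1-DMb) from the top of 14217 genes. With so few genes called, a missing call does not show a return to the vehicle level.

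Nevirapine lowered Cd74 and the 4 chain genes at 24 h and 48 h, and no member was called higher at any time. At 24 h Cd74 was at 7.91, 7.48 and 7.55 in the nevirapine rats and at 8.74, 8.58 and 8.80 in vehicle, without overlap, a change of -1.06 ± 0.25 (limma, adjusted p = 0.00363). RT1-Da changed by -1.15 ± 0.26, RT1-Bb by -1.16 ± 0.28, RT1-Db1 by -0.87 ± 0.26 and RT1-Ba by -0.73 ± 0.22, all called. Of all genes, 6.63% were called lower. RT1-DMa and RT1-DMb changed by -0.38 each and were not called. Leaving out vehicle rat 4 or 6 or nevirapine rat 38 left 3 members called.

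At 48 h, after the dose numbered 3, the lowest Cd74 values of the series were measured. Cd74 was at 7.31, 7.11 and 7.11 in the nevirapine rats and at 9.11, 8.27 and 8.38 in vehicle. Every nevirapine rat was below every vehicle rat, and the signal was 2.65-fold lower (-1.41 ± 0.25, limma, adjusted p = 0.00017). RT1-Bb was at 5.13, 5.01 and 4.91 against 6.57, 6.03 and 6.26, a change of -1.27 ± 0.28 (adjusted p = 0.00168). RT1-Db1 changed by -1.09, RT1-Da by -0.86 and RT1-Ba by -0.85, and 6.44% of all genes were called lower. Among 14217 genes ranked from the lowest change, Cd74 was at 11, RT1-Bb at 18 and RT1-Db1 at 35. The editor chains RT1-DMa and RT1-DMb had changes of -0.42 each (adjusted p = 0.23 and 0.195). Whether the chains and the editor differed in their response was not tested.

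Neither at 3 h nor at 15 d was Cd74 or a chain gene called. At 3 h the 7 genes had changes from -0.35 to 0.29, with nevirapine rat 33 the lowest of its group in all 7. Ciita was the only member called at 3 h, with -0.38 ± 0.11 (limma, adjusted p = 0.0189), where 7.48% of all genes were called lower. Its second probe set gave 0.10 ± 0.26 there. At 15 d none of the 8 was called, where 13.9% of all genes were. Their changes lay from -0.02 (Ciita) to -0.56 (RT1-DMb), 5 of the 8 had groups that did not overlap (27.6% of all genes lower), and 1 had an unadjusted p under 0.05. A fit of only these groups called 5. Cd74 was at 8.72, 8.25 and 8.53 against 8.84, 9.04 and 9.12, a change of -0.50 ± 0.25 (adjusted p = 0.197).

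The combination raised the same 7 members at every time measured. At 3 h, Cd74 was at 10.51, 10.74 and 10.97 against 8.52, 7.94 and 8.82 in vehicle, without overlap, a change of 2.32 ± 0.25 and a 4.98-fold higher signal (limma, adjusted p = 6.98e-09). RT1-Da was at 10.52, 10.71 and 10.92 against 7.46, 7.10 and 8.01. Its change of 3.20 ± 0.26 (9.18-fold, limma, adjusted p = 9.27e-11) was the largest of any member in the 12 comparisons of a treatment with vehicle. That size depends on the control too. Mean RT1-Da was 7.52 in vehicle at 3 h and 8.57 in vehicle at 15 d, and 10.72 and 10.68 in the combination at 3 h and 8 d. RT1-Db1 changed by 2.49, RT1-Bb by 2.44, RT1-Ba by 2.17, RT1-DMb by 2.12 and RT1-DMa by 2.08, and 15.2% of all genes were called higher. These rats had already had nevirapine for 7 days.

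At 24 h the changes of the 7 genes were 1.70 to 2.81 (20.7% of all genes called higher) and at 48 h 1.58 to 2.70 (10.2%). Cd74 was at 11.58, 10.92 and 11.32 at 24 h and at 10.92, 10.63 and 11.52 at 48 h. All 7 measured Kupffer cell genes also rose at both times, with summed linear signals of 4910 to 5620 against 2140 to 2280 in vehicle at 24 h and 4350 to 6880 against 1430 to 3800 at 48 h. Their part in the result was not tested. The mean GAPDH difference was 0.235 against 0.470 in vehicle at 24 h and 0.318 against 0.613 at 48 h, and with it as a covariate 7 members were called at both times. From 3 h to 24 h none of the 8 members was called by limma, where 41.2% of all genes were. None was called from 24 h to 48 h either, where 28.5% were. The groups overlapped for all 8 members in both steps. From 48 h to 8 d Ciita alone was called, with -0.29 ± 0.11 (adjusted p = 0.0431), where 19.9% of all genes fell, and leaving out combination rat 70, 72, 73, 84 or 87 ended that call.

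At 8 d, the time of the fibrosis named in the design, the 7 genes were still higher than in vehicle at 15 d. Cd74 was at 11.13, 10.28 and 10.90 against 8.84, 9.04 and 9.12, a change of 1.77 ± 0.25 (3.41-fold; limma, adjusted p = 2.6e-06). RT1-Db1, the β chain of RT1-D, was at 10.33, 9.34 and 10.31 against 7.81, 7.83 and 7.88, a change of 2.15 ± 0.26 (4.45-fold, adjusted p = 1.87e-07). RT1-Da changed by 2.12, RT1-Ba by 1.95 and RT1-Bb by 1.86. RT1-DMb was at 8.30, 7.36 and 7.92 against 6.89, 6.84 and 7.02, a change of 0.94 ± 0.23 (adjusted p = 0.00213). RT1-DMa was at 7.11, 6.19 and 6.92 against 5.82, 5.91 and 6.16, a change of 0.78 ± 0.24 (adjusted p = 0.0159), and its call was lost when vehicle rat 13 or combination rat 73 or 87 was left out. Of all genes, 13.1% were called higher. Ranked by change among 14217 genes, RT1-Db1 was at 44 from the top, RT1-Da at 49, RT1-Ba at 65, RT1-Bb at 79 and Cd74 at 94, RT1-DMb at 405 and RT1-DMa at 662.5 (a tie).

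**Figure D2:**
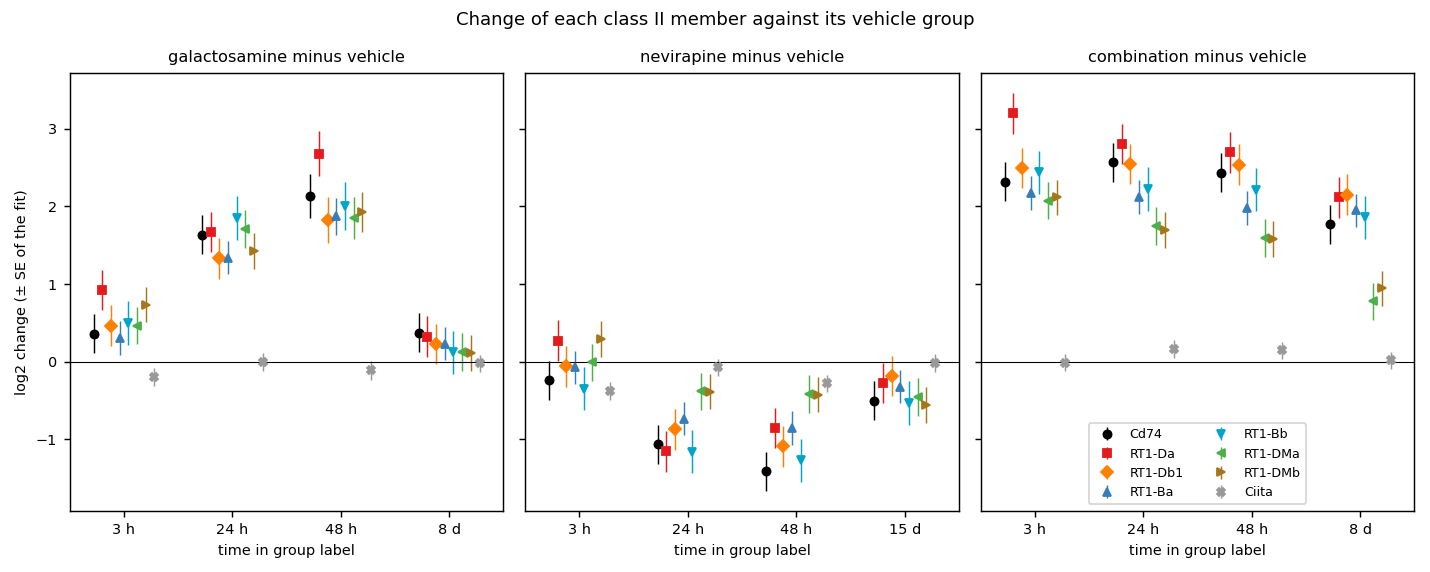
Log2 change of each member against its vehicle group (vertical axis) with the standard error of the limma fit, by time (horizontal axis) for galactosamine, nevirapine and the combination; the combination at 8 d is set against vehicle at 15 d. Without Ciita, galactosamine changes run from 1.33 to 1.85 at 24 h and from 0.12 to 0.37 at 8 d, and those of the combination from 2.08 to 3.20 at 3 h and from 0.78 to 2.15 at 8 d.

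The combination was then set against each drug alone. These comparisons share the combination rats and, in part, the vehicle rats, so they are not independent of each other. At 3 h all 7 members were higher with the combination than with galactosamine alone, by 1.38 (RT1-DMb) to 2.27 (RT1-Da), where 10.6% of all genes were called higher. Cd74 was at 10.51, 10.74 and 10.97 against 8.62, 8.81 and 8.93, without overlap (1.95 ± 0.25, limma, adjusted p = 4.91e-07). At 24 h, 4 members were higher: RT1-Db1 (1.22 ± 0.26), RT1-Da (1.14 ± 0.26), Cd74 (0.93 ± 0.25) and RT1-Ba (0.78 ± 0.22), where 16.2% of all genes were. RT1-DMa was at 7.40, 6.80 and 7.23 against 7.08, 7.00 and 7.24, and its difference of 0.04 ± 0.24 was within the spread. At 48 h none was called by limma (29.3% of all genes were), and 2 had an unadjusted p under 0.05. The closest was RT1-Db1, at 9.91, 9.51 and 10.74 against 9.21 and 9.48 (0.71 ± 0.29, adjusted p = 0.0624). Its second probe set was called higher (0.70 ± 0.20, limma over 20826 probe sets, adjusted p = 0.00717). So was a further probe set of RT1-Ba (0.68 ± 0.23, adjusted p = 0.0283), while the remaining additional probe sets of members were not called.

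At 8 d each drug group was first set against its own vehicle group. The change was larger with the combination than with galactosamine for Cd74 and all 4 chain genes, by 1.40 to 1.92, where 5.87% of all genes had a higher difference. The difference was 1.92 ± 0.37 for RT1-Db1 (limma, adjusted p = 0.000901) and 1.72 ± 0.30 for RT1-Ba (adjusted p = 0.000347). RT1-DMb (0.83 ± 0.32, adjusted p = 0.0876) and RT1-DMa (0.65 ± 0.34, adjusted p = 0.216) were not called. Against nevirapine at 15 d, which had the same number of oral doses, 7 members were higher, by 1.23 (RT1-DMa) to 2.39 (RT1-Da and RT1-Bb), where 9.31% of all genes were.

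The interaction at 8 d asks whether the combination differed from the sum of both drugs' own changes. On the log2 scale it is the difference of the combination from nevirapine at 15 d, less the change with galactosamine at 8 d. It was called higher for 6 of the 8 members, while 2.05% of all genes were called higher and 2.82% in either direction. RT1-Bb had 2.27 ± 0.39 (limma, adjusted p = 0.00104), RT1-Db1 2.11 ± 0.37 (adjusted p = 0.00104), RT1-Da 2.06 ± 0.37 (adjusted p = 0.00128), RT1-Ba 2.03 ± 0.30 (adjusted p = 0.000396) and Cd74 1.90 ± 0.35 (adjusted p = 0.00232). RT1-DMb had 1.39 ± 0.32 (adjusted p = 0.0144), RT1-DMa 1.10 ± 0.34 (adjusted p = 0.0643), and Ciita 0.06 ± 0.16. Among 14217 genes ranked by this value, Cd74 and the 4 chain genes held ranks 21 (RT1-Bb) to 38 (Cd74). Leaving out 1 rat at a time gave 5 to 7 called members.

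Ciita gave different answers from its 2 probe sets. The one with the highest mean spanned 4.67 to 5.50 over all 50 arrays, a range at the 16.6th percentile of all genes. At combination 3 h it was at 5.37, 5.30 and 5.05 against 5.31, 5.17 and 5.28 in vehicle, a difference of -0.01 ± 0.11 (limma, adjusted p = 0.947). The second was at 5.81, 6.40 and 6.37 against 3.83, 4.11 and 4.19. All 3 combination rats were above background and all vehicle rats below it, and the fitted difference was 2.15 ± 0.26 (limma over 20826 probe sets, adjusted p = 6.55e-08). A vehicle level under background is only a bound, so the size of the change was not measured; the same holds for this probe set at 24 h, where all vehicle rats were under background too. Which probe set follows the Ciita transcript was not tested.

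By that second probe set Ciita had a time course of its own in the combination. It was at 5.17, 4.67 and 4.69 at 24 h, and from 3 h to 24 h it fell by 1.35 ± 0.26 (limma, adjusted p = 5.49e-05). At 48 h it was at 5.47, 4.31 and 6.17 and at 8 d at 5.63, 4.57 and 5.70. The low rats at those times, 71 and 84, were also the lowest of their groups in all 7 other members. Against vehicle the changes were 0.64 ± 0.26 at 24 h (adjusted p = 0.0584), 0.92 ± 0.26 at 48 h (adjusted p = 0.0134) and 0.76 ± 0.26 at 8 d (adjusted p = 0.0313). Galactosamine alone gave 0.88 ± 0.26 at 24 h (adjusted p = 0.00439) and 1.35 ± 0.29 at 48 h (adjusted p = 0.000351). Nevirapine at 48 h gave -0.56 ± 0.26 (adjusted p = 0.133), with all 3 rats at 3.81 to 3.85, under the background level.

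**Figure D3:**
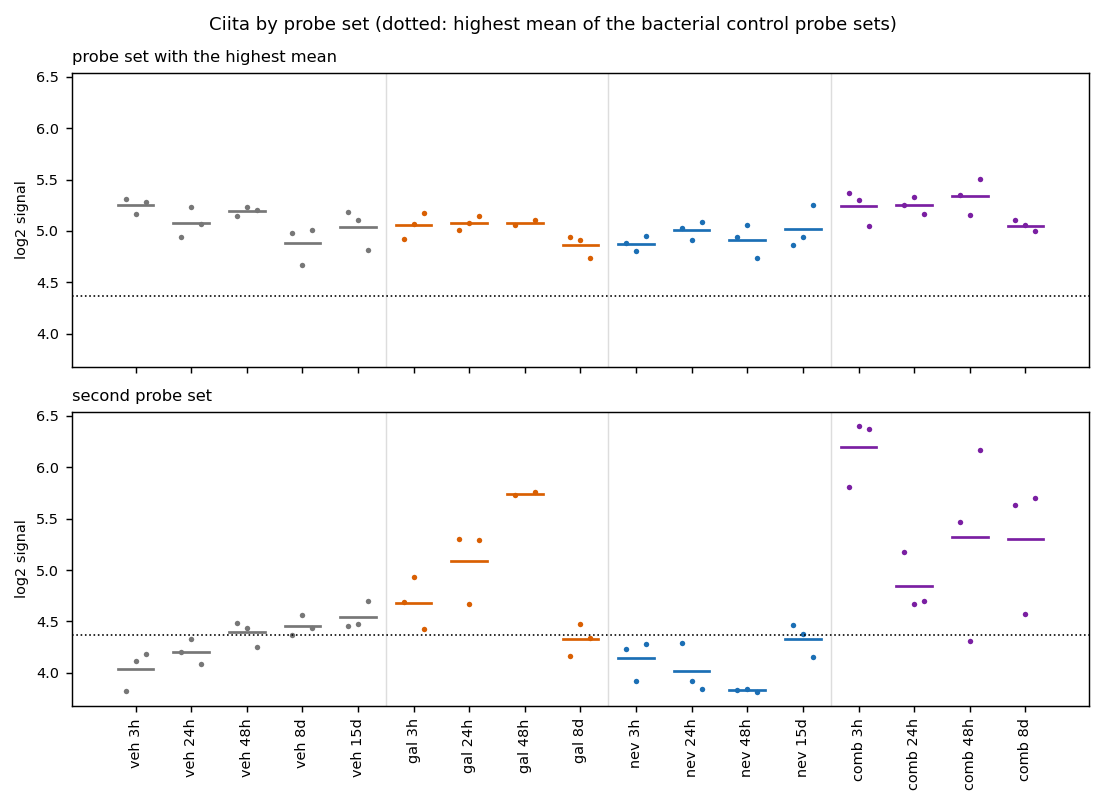
Log2 signal (vertical axis) of both Ciita probe sets in the 17 groups (horizontal axis), 1 point per rat with the group mean as a bar; the dotted line is the background level of 4.37. The upper probe set stays between 4.67 and 5.50, while the lower one runs from 3.81 to 6.40 and is highest in combination rats at 3 h.

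Other members also had more than 1 probe set. The second of RT1-Ba had changes close to the first, such as 2.30 ± 0.21 at combination 3 h. Its probe set with a mean of 7.68 had a fitted difference of 0.56 ± 0.21 then, and its dimmest 0.56 ± 0.14. The one with a mean of 7.68 was also called higher at combination 24 h (0.74), 48 h (1.23) and 8 d (0.71). It was not called at galactosamine 24 h (0.40 ± 0.21) or 48 h (0.55 ± 0.23). Nor was it called at nevirapine 24 h (0.065 ± 0.21) or 48 h (-0.125 ± 0.21), or for the interaction (0.89 ± 0.30). RT1-Db1 was read by a second, dim probe set with a fitted difference of 1.05 ± 0.18 at combination 3 h (limma over 20826 probe sets, adjusted p = 1.66e-05) and 0.36 ± 0.18 at galactosamine 24 h (adjusted p = 0.0773). For this probe set and the dimmest of RT1-Ba, all vehicle rats were under the background level, so these sizes rest on a vehicle level that is only a bound. The second probe set of RT1-Bb had a mean of 2.81, under the background level, and a fitted difference of -0.14 ± 0.10 at combination 3 h. RT1 genes have near-identical relatives, such as RT1-Db2 beside RT1-Db1, and how far a probe set reads a relative was not tested.

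Within many groups 1 rat was low or high in most class II genes, but not in every group: at galactosamine 48 h, rat 26 was the lower in 3 of the 7 genes and the higher in 4. For the deviations from the group mean over 50 arrays, Pearson's r was 0.687 to 0.961 over the 21 pairs of the 7 genes, and 0.839 to 0.961 among Cd74 and the 4 chains. Ciita's first probe set had r from -0.10 to 0.17 with the 7 genes. Its second had 0.490 to 0.814, highest with RT1-DMb. These values describe shared arrays, so general differences between arrays enter them too.

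The spread between rats was widest in combination rats at 48 h. The median SD of the 7 genes was 0.629 there, 0.513 at nevirapine 3 h and 0.498 at combination 8 d, against 0.094 in vehicle at 15 d and 0.089 in galactosamine at 48 h. Rats 61, 69, 71 and 84 were the lowest of the combination rats at 3 h, 24 h, 48 h and 8 d in all 7 genes. RT1-DMb at 48 h was at 8.23, 7.31 and 8.93, with rat 71 the low one and rat 72 the high one. Without rat 84, the change of Cd74 at 8 d was 2.01 and that of RT1-DMa 1.05, and 7 members stayed called. Without rat 72, Cd74 at 48 h changed by 2.19.

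**Figure D4:**
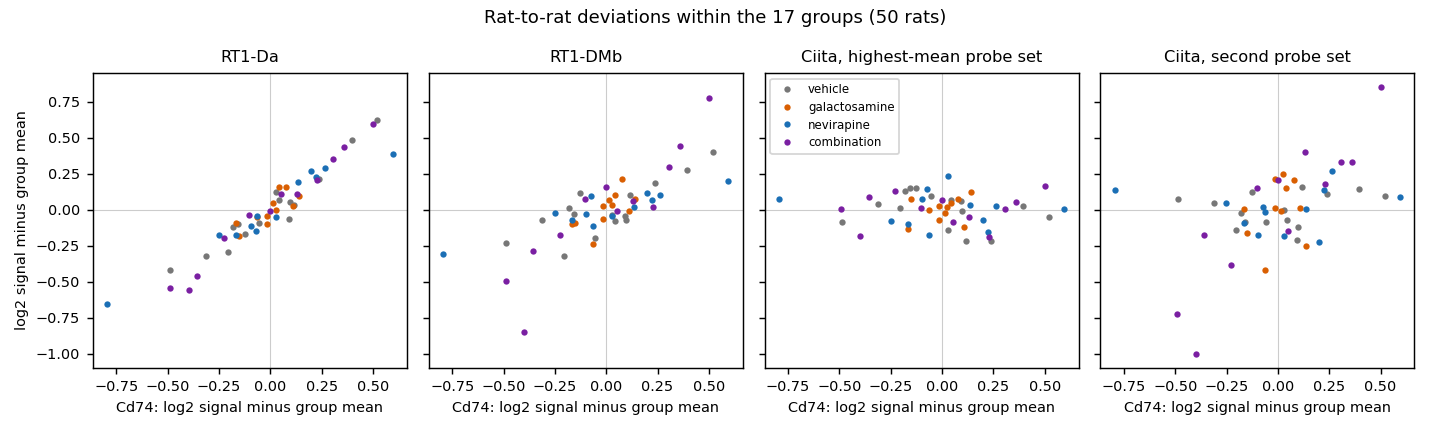
Deviation of each of 50 rats from its group mean in log2 signal, with Cd74 on the horizontal axis and RT1-Da, RT1-DMb, Ciita by its highest-mean probe set and Ciita by its second probe set on the vertical axis; colours mark the treatment. RT1-Da and RT1-DMb follow Cd74 from rat to rat, and Ciita's highest-mean probe set does not, with r within -0.10 to 0.17 for the 7 genes.

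The genes most like Cd74 over the 17 group means were Tmsb4x (r = 0.950), which encodes the actin-binding thymosin β4, Napsa (0.921), an aspartic protease, Pla2g2d (0.919), a secreted phospholipase A2, Fxyd2 (0.917), a subunit of the sodium pump, and Eif4e3 (0.917). All 21 pairs of the 7 members had r between 0.940 and 0.993 over the same means. For Ciita by its first probe set, the closest were Jakmip1 (0.836), Csf3r (0.833), Gm2a (0.827), C1r (0.822) and Cenpu (0.821). The points share groups and arrays, and r is given without a test.

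Upstream of class II, the genes of the interferon-γ signal moved in part. Ifng itself was not called in the 4 combination groups (changes of 0.08 to 0.22), which does not show that it was unchanged. In each of these groups 1 of the 8 measured genes of the list was under the background level. At combination 3 h, 4 of 8 measured genes rose and none fell, with Irf1 by 1.30, Jak2 by 1.20, Irf8 by 0.68 and Ifngr1 by 0.57. At combination 8 d, 2 of 8 rose, Ifngr1 (0.67) and Jak2 (0.38), and Irf1 was at -0.12. Galactosamine at 24 h raised 5 of 8 and lowered 2, with Irf1 at 1.79 and Jak2 at 1.77. At that time 58.8% of all genes were called and 30.2% were called higher. The share of all genes called higher was 15.2% at combination 3 h and 13.1% at combination 8 d.

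The factors on class II promoters showed no common direction. Of the 8 transcription genes, Ciita included, galactosamine at 24 h raised 5, among them Rfx5 (1.89) and Nfya (1.61), and lowered Rfxank (-1.14). Combination 3 h raised Rfx5 (0.83) and lowered 4, among them Rfxap (-0.62) and Nfya (-0.49). At combination 8 d none was called by limma, with a median of -0.04. The share of all genes called higher was 30.2% at galactosamine 24 h, where 58.8% were called, and 15.2% at combination 3 h. The share called lower at combination 3 h was not counted, so the 4 lowered genes cannot be read against it.

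Downstream come the endosomal genes that prepare peptide and cut the invariant chain. At combination 8 d, 5 of 9 rose and none fell (13.1% of all genes were called higher). Among them Ctss, the cathepsin that trims the invariant chain, rose by 0.76, the asparaginyl protease Lgmn by 0.66, the membrane protein Lamp1 by 0.40 and the thiol reductase Ifi30 by 0.36. At combination 3 h, Ctss (1.54), Lgmn (1.27) and Ifi30 (0.92) rose. Nevirapine at 24 h lowered Ctss (-0.72) and Ifi30 (-0.46) and raised Ctsd (0.43). The interaction at 8 d was called for 4 of 9 (2.82% of all genes), with Ctss at 1.09, Lgmn at 0.98 and Ifi30 at 0.81. Marchf1, a ubiquitin ligase that removes class II from the surface, was higher at combination 3 h (2.09), combination 8 d (1.82) and galactosamine 48 h (2.23), and its interaction was 2.07. Of the 5 measured turnover genes, 3 rose at combination 3 h and 1 at 8 d, where 15.2% and 13.1% of all genes were called higher.

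Most class I presentation genes rose at the early times listed here, and none was called at combination 8 d. Of 8 measured, 6 rose with galactosamine at 24 h (median 0.98). With the combination 7 rose at 3 h, 24 h and 48 h (medians 0.91, 0.94 and 0.73). The share of all genes called higher was 30.2% at galactosamine 24 h and 15.2%, 20.7% and 10.2% at those combination times. Psmb9, an immunoproteasome subunit, changed by 2.43 and the peptide transporter Tap1 by 1.69 at combination 3 h. At combination 8 d limma called none of the 8 (median 0.03), with Psmb9 at 0.13 and Tap1 at 0.11, where 13.1% of all genes were called higher. The 7 class II genes had a median of 1.86 there, and the difference between the 2 lists was not tested. The summed linear signal of the 8 was 9400 to 9850 in vehicle at 15 d and 9830 to 11000 at combination 8 d. Of the 6 measured costimulation genes, 3 rose at combination 3 h, with Icam1 at 1.21, Cd86 at 1.12 and Cd40 at 0.66. None was called at 8 d, where their summed linear signal was 351 to 429 against 281 to 293 in vehicle at 15 d. These sums did not overlap, and 2 of the 6 genes were under background in both groups.

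Markers of cells that carry class II moved with some of the results, and their part in them was not tested. At combination 3 h all 7 of 7 measured Kupffer cell genes rose (10 listed), with a summed linear signal of 5700 to 6440 against 1760 to 3230 in vehicle and none under background. Adgre1 changed by 2.45 and Cd5l by 1.96. The share of all genes called higher there was 15.2%. Of 10 macrophage genes 8 rose, of 8 T and NK cell genes 7 rose, and 2 of 6 dendritic cell genes rose, Clec10a (2.18) and Itgax (0.56). Of the 8 T and NK cell genes, 7 were under background in vehicle and 1 in the combination, with sums of 126 to 130 and 198 to 258. No B or plasma cell gene was called by limma there, and 2 of the 5 measured were under background.

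At galactosamine 24 h the class II genes were higher while no Kupffer cell gene was called. The 7 Kupffer cell genes had a median of 0.17 and sums of 2020 to 2650 against 2140 to 2280 in vehicle. Macrophage genes split, 4 higher and 2 lower of 10, with sums of 7060 to 8270 against 1620 to 1750; of all genes, 58.8% were called at this time and 30.2% were called higher. Among them Gpnmb changed by 3.77, Lgals3 by 3.71, Lyz2 by 3.07 and Cd14 by -1.44. Of the dendritic cell genes, Itgax rose by 1.65 and Clec9a fell by 0.52. At 48 h all 7 Kupffer cell genes rose as well, with a median of 1.49, where 24.9% of all genes were called higher.

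At combination 8 d, 1 of 7 Kupffer cell genes was called, Adgre1 (0.83), and the median was 0.06. Their sums were 3210 to 5370 against 3610 to 4190 in vehicle at 15 d, so the groups overlapped. Macrophage genes rose in 5 of 10, with Gpnmb at 2.23 and Lgals3 at 1.44, and sums of 4450 to 5680 against 2280 to 2530. The dendritic cell genes Clec10a (1.48) and Itgax (0.72) rose, while Flt3 (-0.50) and Batf3 (-0.36) fell, with sums of 304 to 402 against 245 to 255. Of the B and plasma cell genes Cd79b fell (-0.73). Of the T and NK cell genes only Cd8a rose (0.94). Stellate and fibroblast genes rose in 4 of 6, with Col1a1 at 2.13 and Col3a1 at 1.90. The share of all genes called higher at combination 8 d was 13.1%.

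At nevirapine 24 h, 6 of 7 Kupffer cell genes fell beside the class II genes, where 6.63% of all genes were called lower. Cd5l changed by -1.36, C1qa by -0.99, C1qc by -0.95 and C1qb by -0.86, with sums of 1110 to 1250 against 2140 to 2280 in vehicle. At nevirapine 48 h limma called none of the 7 (median -0.13), with sums of 1660 to 2020 against 1430 to 3800, while Cd74 and the chains were lower by 0.85 to 1.41. The dendritic cell gene Itgax changed by -0.81 and the B cell gene Cd22 by -0.63 at 48 h. Each was the only one of its list called, where 6.44% of all genes were called lower.

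**Figure D5:**
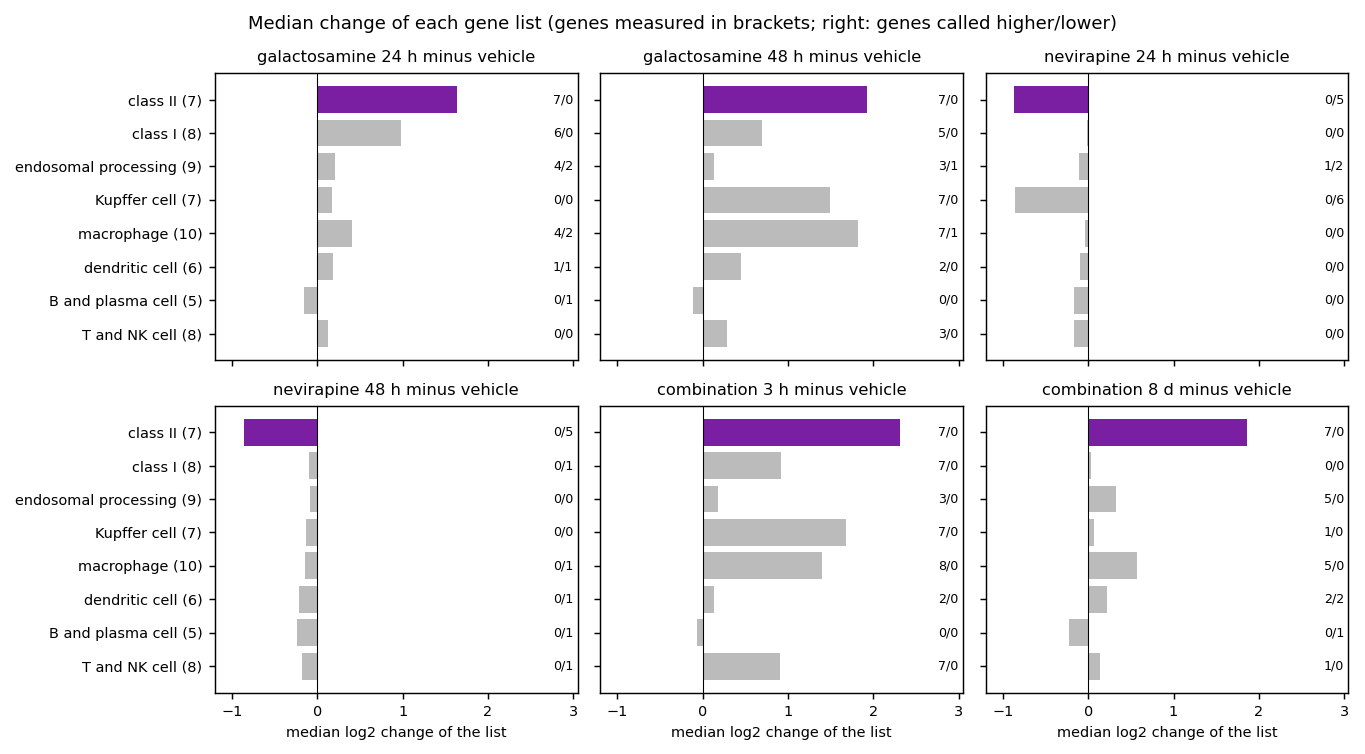
Median log2 change of each gene list (horizontal axis) in 6 comparisons with vehicle, with the number of measured genes in brackets and, at the right of each bar, the genes called higher and lower. The 7 class II genes (purple) have a median of 1.86 at combination 8 d, where class I has 0.03 and Kupffer cell genes 0.06.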

How the data were processed

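RNA from 50 livers was measured on Affymetrix rat arrays, 1 per rat. The deposited values are log2 signals of 31099 probe sets. The authors used RMA and limma, without a stated version, per the submitters' processing notes. Here the values were neither rescaled nor filtered for low signal. Of the probe sets, 20826 had 1 gene symbol and 436 had several. Each of 14217 genes was read from its brightest probe set on average. How many arrays a group has sets the precision.

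Limma 3.58.1 in R 4.3.3 fitted 17 group means to all 50 arrays, and 25 comparisons were drawn from that fit. P-values from eBayes were adjusted over all genes (Benjamini-Hochberg), and a gene was called below 0.05. No rats were paired. The fit was tested on simulated data. Second probe sets were tested in a fit over all 20826 probe sets. Promoters were searched in Python 3.11.15 with pandas 2.3.3 and NumPy 2.4.6, and figures were drawn with matplotlib 3.10.9.

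The members and the gene lists were chosen with earlier results of these data known. Named genes were all members, the 5 genes most like Cd74 and Ciita over the group means, and up to 4 called genes per list and comparison with the largest changes; other values are given where a contrast needed them. Alternatives were other priors, normalizations, filters, probe sets, controls, array weights, a GAPDH covariate and leaving out rats. Dates were not used here.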

Additional observations from a re-analysis of the deposited data

Results flagged for a closer look

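For 5 members the change at 8 d differed between the combination and galactosamine, each against its own vehicle group, by a test of that difference (limma, adjusted p under 0.05, n = 3 rats per group). The difference was 1.40 for Cd74, 1.79 for RT1-Da, 1.92 for RT1-Db1, 1.72 for RT1-Ba and 1.74 for RT1-Bb on the log2 scale. Of all genes, 5.87% were called higher in this test. In raw signal, without regard to the vehicle groups, all 3 combination rats were above all 3 galactosamine rats in each of the 5 members. The share of all genes lying apart in this way was not counted.

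For 6 members the interaction at 8 d was called, which means that the combination differed from the sum of both drugs' own changes. It was 1.90 for Cd74, 2.06 for RT1-Da, 2.11 for RT1-Db1, 2.03 for RT1-Ba, 2.27 for RT1-Bb and 1.39 for RT1-DMb. Of all genes, 2.05% had an interaction called higher. Both sets of values rest on the same 3 combination rats, of which rat 84 was the lowest in every one of these genes.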

How the results depend on the processing

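Of 1651 values from alternatives other than leaving out a rat, 1565 kept their direction and their side of the threshold, 25 lost the call, 41 gained one and 20 reversed; of 1264 values with 1 rat left out, 1225 kept both, 30 lost the call, 9 gained one and none reversed. No alternative moved the count of called members by over 1.5 times for galactosamine at 24 h and 48 h, for the combination against vehicle at its 4 times or for the interaction. The alternative with a second probe set was chosen after seeing the data. It kept the calls of Cd74, RT1-Da, RT1-DMa and RT1-DMb, which have 1 probe set each, so part of its count could not move. In the fit over 20826 probe sets, the second ones of RT1-Ba and Ciita were called at galactosamine 24 h, and those of RT1-Db1 and RT1-Bb were not. A steady count therefore does not mean that each member kept its call. Counts of called members moved as follows, and the cause was not tested. Galactosamine 3 h had 2 called members, 4 with only the groups compared in the fit, 0 with all vehicle rats as 1 control, and 0 to 2 with a rat left out. Nevirapine 3 h had 1, and 0 with only its groups, without the dimmest 40% of genes, with the mean of all probe sets, with loess, with all vehicle rats, and with the second probe set; leaving out a rat gave 0 to 1. Nevirapine 24 h had 5, 3 with second probe sets, and 3 to 5 with a rat left out. Nevirapine 48 h had 5, 8 with array weights and 3 with second probe sets. Nevirapine 15 d had 0, 5 with only its groups and 4 with array weights. Combination minus galactosamine at 48 h had 0, and 1 with the mean of probe sets, with array weights and with second probe sets; leaving out a rat gave 0 to 1. Galactosamine 48 h minus 24 h had 2, 4 with only its groups, 1 with the GAPDH covariate, and 0 to 2 with a rat left out. Combination 24 h minus 3 h had 0, and 1 with the mean of probe sets, without rats 63, 70 and 31, which stood apart in earlier work, and with second probe sets; leaving out a rat gave 0 to 1. Combination 8 d minus 48 h had 1, and 0 with only its groups, without the dimmest 40%, with the mean of probe sets, with loess, with array weights, without rats 63, 70 and 31, and with second probe sets; leaving out a rat gave 0 to 3.

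All reversals came from other probe sets. For Ciita the mean of both gave 0.44 at galactosamine 24 h, 0.62 at galactosamine 48 h, 1.07 at combination 3 h and -0.67 for combination 24 h minus 3 h. Its second probe set gave 0.88, 1.35, 2.15 and -1.35 for those, and 0.10 at nevirapine 3 h. The second probe set of RT1-Bb, whose mean of 2.81 is under background, gave -0.0093 at galactosamine 24 h, -0.011 at galactosamine 48 h, 0.027 at nevirapine 24 h, 0.058 at nevirapine 48 h, -0.14 at combination 3 h, -0.14 at combination 48 h, -0.0013 at combination 8 d, -0.035 for combination minus galactosamine at 3 h, -0.22 for combination 8 d minus nevirapine 15 d, -0.11 for the interaction and -0.0018 for galactosamine 24 h minus 3 h. Leaving out the dimmest 40% of genes removed Ciita. No paired analysis was possible because the rat numbers differ between groups. Vehicle groups of 3 rats and a galactosamine group of 2 limit what small changes can be seen.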
